A study of Mus musculus with 15 samples.

Results

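To describe the luminal epithelium of mammary tissue under low-dose BDE-47, 10 genes that mark mammary luminal cells were selected by name: Krt8, Krt18, Krt19, Krt7, Epcam, Elf5, Cldn3, Cldn7, Foxa1 and Gata3. All 10 were found among 52526 genes per mouse. The rule used names and no measured value, but the list was drawn up with earlier results of these data known. Each was at or above 1 CPM (mapped reads of the gene per M mapped reads of the library) in at least 7 mice, so all 10 were among the 9506 genes tested. The tissue was the left 4th mammary fat pad of 15 female nu/nu nude mice (Crl:NU-Foxn1 nu), which have few mature T cells because the thymus does not form. From 8 weeks of age, 7 mice received BDE-47, a polybrominated diphenyl ether used as a flame retardant, at 0.03 mg/kg per day for 16 weeks. It was delivered by subcutaneous osmotic pumps in PEG300 with 1% DMSO. The 8 vehicle mice carried pumps with PEG300 and 1% DMSO alone. Some of these mice may have carried a xenograft for a separate study, and the sample labels do not say which.

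The mammary ducts are a double-layered tube set in fat. Luminal cells line the inside, basal myoepithelial cells surround them, and adipocytes, fibroblasts, vessels and a lymph node fill the rest of the pad. Luminal cells are known for the keratin pair K8 and K18, for tight junctions at their inner border, and for 2 broad kinds that share a duct: hormone-sensing cells, which depend on Foxa1, and secretory progenitor cells, which depend on Elf5. Gata3 maintains both.

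Libraries were made from RNA 3′ ends (QuantSeq 3′ FWD), 1 per mouse, so a transcript gives about 1 tag whatever its length and levels of different genes in CPM can be set side by side. Depth was 10.1 to 19.6 M mapped reads per mouse. The deposited levels were on the log2(CPM) scale and stood at 0 wherever a gene had less than 1 CPM. Among the 150 values of the 10 genes, 10 were listed at 0. Of the 15 libraries, 3 stood apart before any comparison of the groups. In vehicle 6 and vehicle 8 all 8 B cell markers were above the floor, at a summed 499 and 686 CPM, against at most 9.87 CPM in any other mouse. Those 2 libraries also held the 2 lowest sums of adipocyte markers, 515 and 1260 CPM, against 4344 to 33689 CPM in the others. In BDE-47 6 the 8 skeletal muscle markers summed to 105791 CPM, against 47.8 to 215 CPM elsewhere. The results for the luminal genes are therefore given with all 15 mice and without these 3, a choice made after the values were seen.

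The summed level of the 10 luminal genes was used as a measure of epithelial share. In the vehicle mice the lowest sum was 45.9 CPM, the median 1342 and the highest 2409. With BDE-47 the lowest was 168 CPM, the median 1782 and the highest 3458. The ranges of the groups overlapped over most of their length, and the 3 lowest sums, 45.9, 168 and 183 CPM, belonged to vehicle 6, BDE-47 6 and vehicle 8. In bulk tissue a lower sum from fewer luminal cells and one from less RNA per cell cannot be told apart. A sum over chosen genes was given no test.

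As a share of all CPM listed above the floor, the luminal genes made up 0.244% in the median vehicle mouse and 0.311% in the median BDE-47 mouse. The lowest share was 0.00849% in vehicle 6, with a 95% Wilson interval from 0.00789% to 0.00914%. BDE-47 5 had the highest, 0.620%, with an interval from 0.614% to 0.625%. These intervals cover the counting of reads within 1 library and not the spread between mice. No molecular identifiers are described for these reads, so copies of 1 molecule may count as separate reads and leave the intervals too narrow. Without the 3 libraries that stood apart, the sums ran from 631 CPM in vehicle 3 to 2409 in vehicle 5 among 6 vehicle mice, with a median of 1659. Among 6 BDE-47 mice they ran from 1496 CPM in BDE-47 4 to 3458 in BDE-47 5, with a median of 1796. The medians of the groups were closer without the 3 libraries, and the ranges still overlapped.

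**Figure D1:**
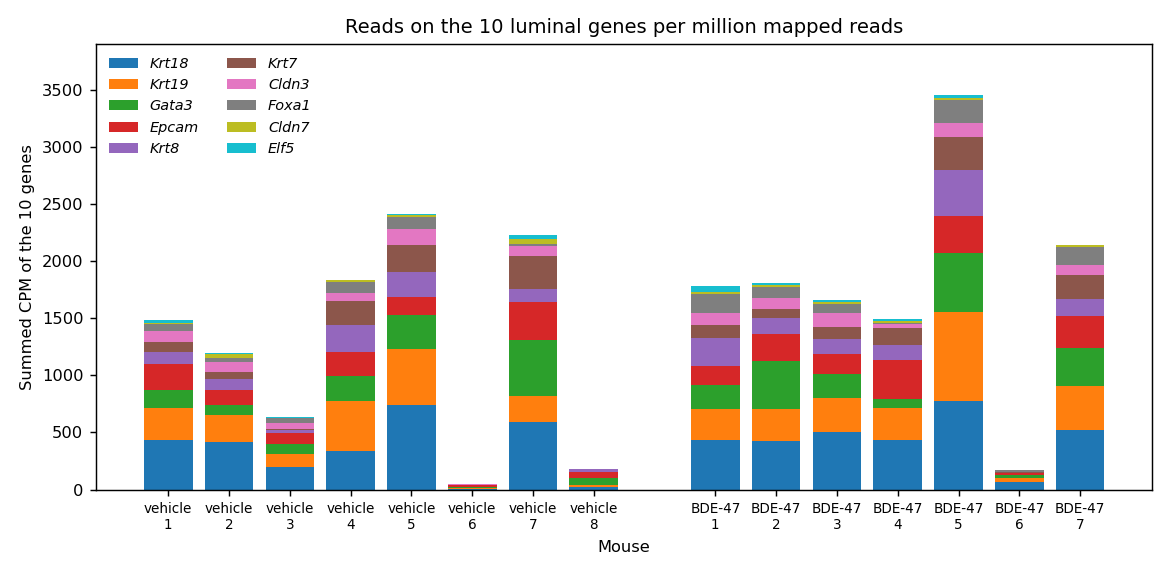
Stacked bars of the level of the 10 luminal genes in each mouse, in CPM on a linear axis from 0, for 8 vehicle and 7 BDE-47 mice, with a colour for each gene. The 3 lowest mice are vehicle 6 (45.9 CPM), BDE-47 6 (168 CPM) and vehicle 8 (183 CPM), and the other 12 lie between 631 and 3458 CPM.

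The share of epithelium was also read against the other tissues of the pad. The luminal sum was 1.87% to 14.5% of the adipocyte sum in the vehicle mice and 3.88% to 34.7% with BDE-47, with medians of 8.99% and 11.1%. In vehicle 6 and vehicle 8 the percentages were 8.91% and 14.5%, within or above the range of the other vehicle mice, so that in these 2 libraries the luminal and adipocyte genes were low together. Against 12 basal markers, which share the ducts, the ratio told another order. It was 0.218 in vehicle 6 and 0.397 in vehicle 8, the 2 lowest of all, and 0.599 in vehicle 3. It was 1.39 to 4.69 in the BDE-47 mice and 1.78 to 4.18 in the remaining 5 vehicle mice. Of the basal genes, Mylk and Acta2, which encode a kinase and an actin of contractile cells, were the most abundant, and both are also made by vessel wall smooth muscle.

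**Figure D2:**
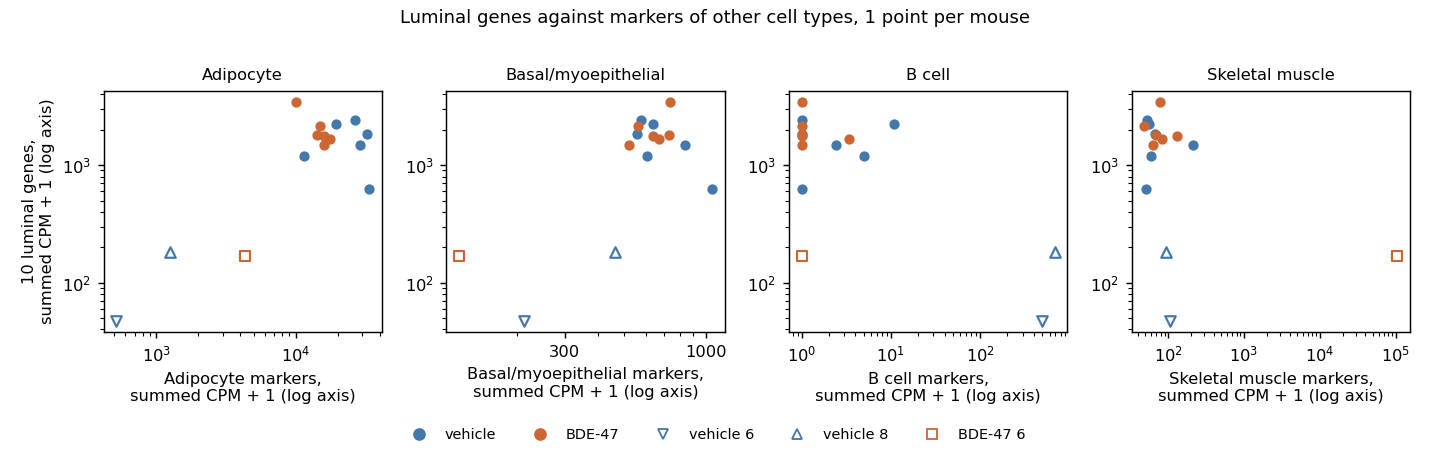
Summed luminal level against the summed level of 4 other marker lists (basal, adipocyte, B cell and skeletal muscle), as CPM + 1 on log axes, 1 point per mouse. Vehicle 6 and vehicle 8 lie apart at high B cell sums (499 and 686 CPM), BDE-47 6 at a high skeletal muscle sum (105791 CPM), and all 3 at low luminal sums.

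Ordered by median level over the 15 mice, the genes ran Krt18 (430 CPM), Krt19 (279 CPM), Gata3 (213 CPM), Epcam (173 CPM), Krt8 (135 CPM), Krt7 (104 CPM), Cldn3 (90.3 CPM), Foxa1 (63.1 CPM), Cldn7 (16.2 CPM) and Elf5 (10.5 CPM). The abundance of neighbours in this order seldom differed beyond the spread between mice. Among the 12 mice, Krt18 was above Krt19 in 10, by 0.57 ± 0.44 on the log2 scale (SD, n = 12). The difference was smaller than its SD for Gata3 and Epcam, 0.04 ± 0.83, and for Cldn7 and Elf5, 0.58 ± 2.06. For each of the other 6 neighbouring pairs it was also below its SD, the one nearest to it being Foxa1 over Cldn7, at 2.10 ± 2.36. Keratins were the bulk of the signal: the 4 of them made up 51.5% to 66.6% of the luminal sum in the BDE-47 mice. In the vehicle mice they made up 54.7% to 69.9% in 6, and 36.5% and 37.6% in vehicle 6 and vehicle 8.

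Krt18 and Krt8 encode the acidic and the basic keratin that pair into the filaments of simple epithelia. Krt18 was lowest at 7.98, had a median of 375 and was highest at 742 CPM in the vehicle mice. With BDE-47 it ran from 69.3 over a median of 434 to 773 CPM. The groups overlapped, and both minima were in libraries that stood apart. The mean log2 level was 7.45 ± 2.41 (SD, n = 8) with vehicle and 8.56 ± 1.12 (SD, n = 7) with BDE-47. The difference was 1.12, with a moderated standard error of 0.64 from limma and a 95% interval from -0.18 to 2.41. It did not pass limma's test across 9506 genes (adjusted p = 0.982), nor the exact permutation test (p = 0.296, two-sided). The difference was 0.48 without vehicle 6, 0.68 without vehicle 8, 0.27 without all 3 libraries that stood apart, and -0.13 without vehicle 6 and vehicle 8, which turned its direction.

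Krt8 ran from 2.19 over a median of 106 to 243 CPM with vehicle, and from 1.99 over 146 to 408 CPM with BDE-47. Between the groups the mean log2 level differed by 0.75, higher with BDE-47, with a standard error of 0.81 (exact permutation p = 0.538, two-sided). It was 0.07 without vehicle 6, 1.68 without BDE-47 6, 0.75 without all 3 libraries, and -0.19 without vehicle 6 and vehicle 8. The ratio of Krt8 to Krt18 had a median of 0.280 over the 15 mice and was farthest from it in 2 of the libraries that stood apart. It was 0.274 in vehicle 6, close to the median. It was 0.0287 in BDE-47 6, where Krt18 was 69.3 CPM and Krt8 only 1.99 CPM, and 1.46 in vehicle 8, where Krt8 was 30.9 CPM and Krt18 21.1 CPM. Among the other 12 mice it stayed between 0.136 and 0.725. The log2 ratio of the partners had an SD of 1.25 over the 15 mice.

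The genes of this pair lie 23.873 kb apart on chromosome 15 and are transcribed away from each other. Their promoters are shown because the ratio of the 2 genes varied between mice while their proteins pair in 1 filament. Krt8 (gene ID 16691) spans chr15:101996711-102004342 and Krt18 (gene ID 16668) chr15:102028216-102032026 in GRCm38.p6. The windows hold 250 bases before and 50 after the annotated start, from RefSeq, read 5′ to 3′ on the strand of the gene. The Krt8 window is chr15:102004293-102004592 on the minus strand, and the Krt18 window chr15:102027966-102028265 on the plus strand. Capitals mark matches to the motifs AGATAA of GATA factors, TGTTTAC of forkhead factors, GGAAGT of ETS factors and AACCGGTT of grainyhead-like factors, each sought on both strands, and TATAAA, the TATA box, on the gene strand.
Krt8: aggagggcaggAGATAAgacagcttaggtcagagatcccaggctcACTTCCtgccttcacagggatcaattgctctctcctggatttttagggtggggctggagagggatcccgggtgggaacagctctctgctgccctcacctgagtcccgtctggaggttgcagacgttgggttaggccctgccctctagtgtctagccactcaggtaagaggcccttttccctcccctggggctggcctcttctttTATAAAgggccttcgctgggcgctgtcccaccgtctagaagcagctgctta
Krt18: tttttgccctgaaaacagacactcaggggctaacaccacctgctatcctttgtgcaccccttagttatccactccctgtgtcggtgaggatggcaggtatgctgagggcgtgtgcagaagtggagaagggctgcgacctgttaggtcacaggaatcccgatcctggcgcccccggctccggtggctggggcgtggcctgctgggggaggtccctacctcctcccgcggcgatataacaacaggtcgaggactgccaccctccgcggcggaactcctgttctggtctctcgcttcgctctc
The Krt8 window holds 1 AGATAA, 1 GGAAGT on the reverse strand, and 1 TATAAA. The Krt18 window holds none of the 5 motifs. Windows were found for 9 of the 10 genes, 11 in all. Among 32851 windows of the same length, 11.2% hold AGATAA, 3.65% TGTTTAC, 23.8% GGAAGT, 0.146% AACCGGTT and 8.32% TATAAA. Among the luminal genes AGATAA and TATAAA were found at Krt8 only, GGAAGT at Krt8, Krt7 and Cldn7, TGTTTAC at Foxa1 only and AACCGGTT at none. A match describes letters in the window and not a site in use.

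Krt19 encodes the smallest acidic keratin, which is widespread in ductal epithelia. It ran from 4.38 over a median of 228 to 484 CPM with vehicle, and from 30.04 over 285 to 781 CPM with BDE-47. The difference in mean log2 level was 1.14, with a standard error of 0.69 (exact permutation p = 0.299, two-sided). Without vehicle 6 it was 0.47, without vehicle 8 0.73, without all 3 libraries 0.39, and without vehicle 6 and vehicle 8 it turned to -0.12. Krt19 and Krt18 moved together over the 15 mice. Their log2 ratio had an SD of 0.43, while the levels themselves had SDs of 2.07 and 1.94. Without the 3 libraries the ratio had an SD of 0.44, against 0.67 for Krt19 and 0.53 for Krt18. Most of the contrast thus came from the 3 libraries. Over the 15 mice the ratio lay between 0.373 in vehicle 7 and 1.33 in vehicle 4, so the libraries with low luminal sums kept it in the range of the others.

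Krt7, a basic keratin of ducts and glands, had a wider range. It ran from 1.17 over a median of 73.2 to 288 CPM with vehicle, and from 3.27 over 109 to 289 CPM with BDE-47. Its highest levels in the groups were thus almost equal. Krt7 had a mean log2 level 1.32 higher with BDE-47, with a standard error of 0.93 (exact permutation p = 0.391, two-sided). The value was 0.76 without vehicle 6, 0.63 without vehicle 8, 2.09 without BDE-47 6, 0.64 without all 3 libraries, and -0.14 without vehicle 6 and vehicle 8. Among the 12 mice without the 3 libraries, the highest Krt7 level was 38.8 times the lowest, against 3.98 times for Krt18. The lowest of these 12 was vehicle 3, with 7.45 CPM of Krt7 beside 194 CPM of Krt18.

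Epcam encodes an adhesion molecule found on nearly all simple epithelia. It was lowest at 15.8, had a median of 145 and was highest at 333 CPM in the vehicle mice, and ran from 15.7 over 235 to 341 CPM with BDE-47. With BDE-47 its mean log2 level was 0.55 higher, the smallest difference of the 10 genes, with a standard error of 0.56 (exact permutation p = 0.475, two-sided). That value was 0.15 without vehicle 6, 1.12 without BDE-47 6, 0.45 without all 3 libraries, and -0.12 without vehicle 6 and vehicle 8. Among the 12 mice its highest level was 3.34 times its lowest, the narrowest range of the genes above the floor in all 12. In vehicle 8 it was 50.3 CPM, 23.3% of the median of the 12 mice, whereas Krt18 was 4.88% of its own. Epcam was 2.38 times Krt18 in that library and 1.98 times Krt18 in vehicle 6. It was below Krt18 in BDE-47 6 (0.226 times) and in all 12.

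Cldn3 and Cldn7 encode claudins, the membrane proteins of tight junctions. Cldn3 ran from 1.09 over a median of 78.8 to 140 CPM with vehicle, and from 5.98 over 99.4 to 120 CPM with BDE-47. The vehicle mice held both the lowest and the highest level. The mean log2 level of Cldn3 was 1.05 higher with BDE-47, with a standard error of 0.86 (exact permutation p = 0.375, two-sided), and it was 0.07 without the 3 libraries, with a standard error of 0.42 (exact permutation p = 0.833). That was the smallest difference of the 10 genes among the 12 mice. It was 0.41 without vehicle 6, 0.38 without vehicle 8, 1.61 without BDE-47 6, and -0.49 without vehicle 6 and vehicle 8.

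Cldn7 was listed at 0 in vehicle 3, vehicle 6, vehicle 8 and BDE-47 6. Its median was 7.12 and its highest level 48.9 CPM in the vehicle mice, against a median of 18.5 and a highest level of 22.4 CPM with BDE-47. The difference in mean log2 level was 1.11, with a standard error of 1.09 (exact permutation p = 0.309, two-sided). It was 0.87 without all 3 libraries and 0.27 without vehicle 6 and vehicle 8. In 6 BDE-47 mice Cldn7 lay in a narrow band from 16.0 to 22.4 CPM, while the 6 vehicle mice outside the 3 libraries ran from 0 to 48.9 CPM, on both sides of that band. At 0 the listed value allows anything below 1 CPM, about 10 to 20 reads at these depths.

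Gata3 encodes the zinc finger transcription factor that maintains luminal identity. It ran from 12.1 over a median of 127 to 495 CPM with vehicle, and from 30.4 over 213 to 516 CPM with BDE-47. The mean log2 level of Gata3 was 0.71 higher with BDE-47, with a standard error of 0.58 (exact permutation p = 0.401, two-sided). The value was 0.25 without vehicle 6, 1.14 without BDE-47 6, 0.46 without all 3 libraries, and 0.03 without vehicle 6 and vehicle 8. In vehicle 8, Gata3 was 62.8 CPM and 2.97 times Krt18, and in vehicle 6 it was 12.1 CPM and 1.52 times Krt18. It was below Krt18 in BDE-47 6 (0.438 times) and in all 12 mice outside the 3 libraries. Gata3 is also a transcription factor of T cells, and the 8 T cell markers summed to 507 CPM in vehicle 6 and 341 CPM in vehicle 8, against at most 21.4 CPM elsewhere. Their part in the Gata3 level was not tested.

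**Figure D3:**
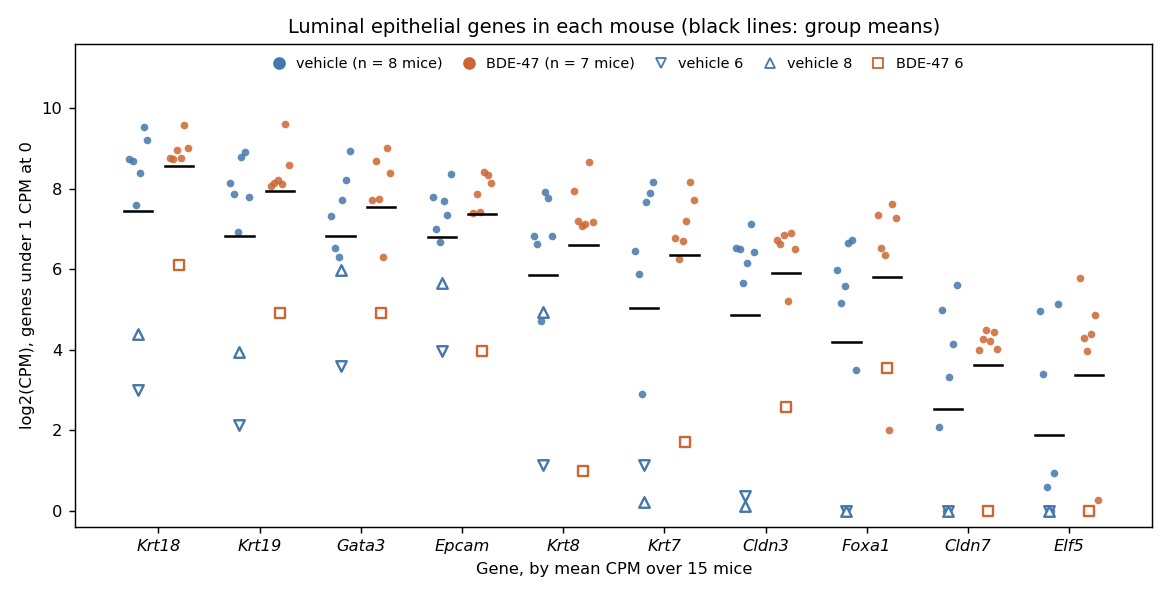
Level of each of the 10 luminal genes in each mouse, in log2(CPM), with the 8 vehicle and 7 BDE-47 mice side by side and black lines at the group means. The 3 libraries that stood apart have open symbols and lie at or near the bottom for most genes, as for Krt18 at 7.98 CPM in vehicle 6 against 194 CPM in the lowest of the 12 other mice.

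Foxa1 encodes a forkhead factor that opens chromatin for the estrogen receptor and marks hormone-sensing luminal cells. It was listed at 0 in vehicle 6 and vehicle 8, had a median of 42.0 and was highest at 105 CPM with vehicle. With BDE-47 it ran from 4.03 over 92.1 to 196 CPM. The difference in mean log2 level, 1.61 with a standard error of 0.93 and a 95% interval from -0.26 to 3.48, was the widest of the 10 genes and failed both tests (limma adjusted p = 0.982, exact permutation p = 0.237, two-sided). Without the 3 libraries it was 0.59, with a standard error of 0.65 (exact permutation p = 0.563), and without vehicle 6 and vehicle 8 it was 0.21. Among the 12 mice the highest Foxa1 level was 48.7 times the lowest, and the lowest, 4.03 CPM, was in BDE-47 4, a mouse with 432 CPM of Krt18.

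The promoter window of Foxa1 is shown because Foxa1 had this range and its window alone holds the forkhead motif. The gene (gene ID 15375) spans chr12:57540628-57548029, and the window is chr12:57546062-57546361 on the minus strand of GRCm38.p6, from RefSeq. The whole window lies within the span of the gene. Its start is thus an annotated start inside the gene and not the outer 5′ end of the span. Capitals mark the 1 match to TGTTTAC, on the reverse strand, whose first base lies 141 bases before that inner start.
Foxa1: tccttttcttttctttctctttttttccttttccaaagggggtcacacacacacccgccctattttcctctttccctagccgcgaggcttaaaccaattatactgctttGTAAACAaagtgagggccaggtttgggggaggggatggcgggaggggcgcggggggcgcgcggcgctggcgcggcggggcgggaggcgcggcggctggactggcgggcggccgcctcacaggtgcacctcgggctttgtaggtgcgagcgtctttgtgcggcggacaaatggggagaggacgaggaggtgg

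Elf5 encodes an ETS factor of secretory luminal progenitors. It was listed at 0 in vehicle 4, vehicle 6, vehicle 8 and BDE-47 6. Its median was 1.72 and its highest level 35.4 CPM with vehicle, against a median of 19.6 and a highest level of 54.7 CPM with BDE-47. The difference in mean log2 level was 1.48, with a standard error of 1.15 (exact permutation p = 0.224, two-sided). It was the 1 gene of the 10 that stayed past 2-fold without the 3 libraries, at 1.42 with a standard error of 1.22 (exact permutation p = 0.288). The interval of that difference, from -1.04 to 3.87, spanned 0. Without vehicle 6 and vehicle 8 alone the difference was 0.86.

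Elf5 and Foxa1 did not keep a fixed proportion. Foxa1 was above Elf5 in 10 of the 12 mice outside the 3 libraries. In vehicle 4, vehicle 5 and BDE-47 7, Foxa1 was 101, 105 and 156 CPM while Elf5 was listed at 0 or stood at 1.93 and 1.198 CPM. In vehicle 7 and BDE-47 4 the order was turned: Elf5 was 35.4 and 21.2 CPM and Foxa1 11.3 and 4.03 CPM. Mice of both kinds were present in each group, with luminal sums between 1496 and 2409 CPM, so the balance of the 2 factors varied among mice with similar amounts of luminal signal.

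**Figure D4:**
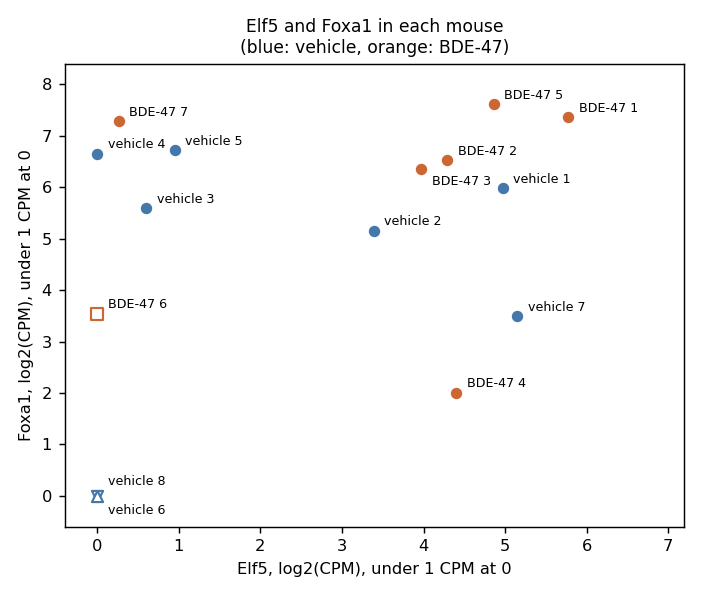
Elf5 (horizontal axis) and Foxa1 (vertical axis) in each mouse, in log2(CPM), with vehicle mice in blue, BDE-47 mice in orange and the 3 libraries that stood apart as open symbols. Vehicle 7 and BDE-47 4 have more Elf5 than Foxa1 (35.4 against 11.3 CPM, and 21.2 against 4.03 CPM), while vehicle 4, vehicle 5 and BDE-47 7 have over 100 CPM of Foxa1 and at most 1.93 CPM of Elf5.

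The comparison of BDE-47 with vehicle gave a higher mean log2 level with BDE-47 for 10 of the 10 luminal genes, while 49.1% of all genes tested had a higher mean. The differences ran from 0.55 for Epcam to 1.61 for Foxa1 with a median of 1.11, against a median of -0.02 over all genes. Of the 10 genes, 7 were past 2-fold in the higher direction, as were 13.0% of all genes, and none in the lower direction, where 13.2% of all genes were. No luminal gene passed limma's test (Benjamini-Hochberg adjusted p = 0.982 for each), where 0% of all genes did. At an unadjusted p under 0.05 the count was also 0 of 10, where 4.65% of all genes passed, 1.94% higher and 2.71% lower. The lowest unadjusted p in limma was 0.0888, for Foxa1. The exact permutation tests gave p from 0.224 to 0.538, where the smallest value that 6435 splits allow is 0.000155. For each of the 10 genes the groups overlapped, and 0.0105% of all genes had groups that did not. The 10 genes share the luminal cells of the same mouse, so their common direction is not 10 separate observations.

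Without vehicle 6, vehicle 8 and BDE-47 6, 10 of 10 luminal genes again had a higher mean with BDE-47, where 49.4% of 8319 genes did. The median difference was 0.53, and 1 gene was past 2-fold higher, where 13.9% of all genes were, with none past 2-fold lower (14.3% of all genes). Adjusted p in limma ran from 0.955 to 0.993 for the luminal genes, where 0.0120% of all genes passed. None had an unadjusted p under 0.05, where 4.77% of all genes did, 2.08% higher and 2.69% lower. The exact p ran from 0.171 to 0.833, with 0.00216 as the smallest that 924 splits allow. All 10 pairs of groups overlapped, as opposed to 0.0841% of all genes without overlap. Leaving out only the 2 vehicle libraries with B cell genes, which keeps BDE-47 6, left 4 of 10 genes with a higher mean with BDE-47. The shared direction thus rested in part on which libraries with low luminal sums were kept.

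**Figure D5:**
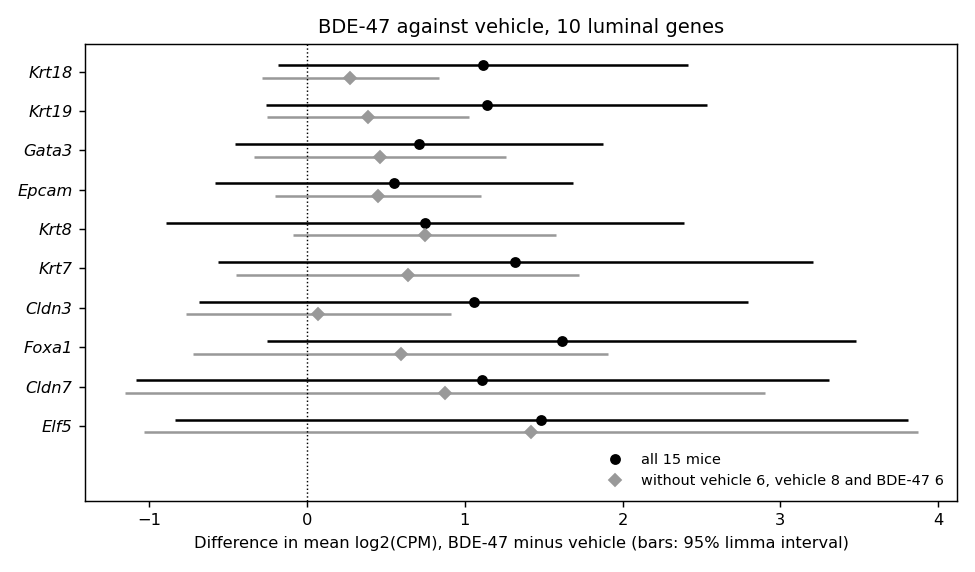
Difference in mean log2(CPM), BDE-47 minus vehicle, for each of the 10 luminal genes with 95% intervals, for all 15 mice and without the 3 libraries. All intervals include 0, and the median difference is 1.11 with all mice and 0.53 without the 3.

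Other epithelial genes were counted in the same fit. Of 26 tested pan-epithelial and other luminal genes, 20 had a higher and 6 a lower mean with BDE-47, with a median difference of 0.53. Cldn4, a claudin, and Dsp, which encodes desmoplakin of desmosomes, had an unadjusted p under 0.05 in limma, at log2 differences of 1.79 and 1.77 (adjusted p = 0.982 for both). Cdh1, which encodes E-cadherin, was the most abundant of them, with a difference of 1.10 and a standard error of 0.63. Once the 3 libraries were left out, 16 of the 26 had a higher and 10 a lower mean, with a median of 0.25. Cldn4 was then at 0.76 (unadjusted p = 0.0992 in limma) and Cdh1 at 0.57, while Dsp at 1.41 had an unadjusted p under 0.05 (adjusted p = 0.955 in limma). Of 9 hormone-sensing genes tested, 7 had a higher and 2 a lower mean, with a median of 1.21. Cited1, Wnt4 and Tbx3 were higher and Ly6a lower at an unadjusted p under 0.05 in limma, and none passed the adjustment (adjusted p = 0.982). The 2 lower genes, Ly6a and Xbp1, did not follow the luminal sum, which was 45.9 and 183 CPM in vehicle 6 and vehicle 8. In these 2 libraries Ly6a was 617 and 341 CPM and Xbp1 91.4 and 86.7 CPM. Without the 3 libraries 6 of the 9 hormone-sensing genes had a higher and 3 a lower mean, with a median of 0.77. None of the 9 then had an unadjusted p under 0.05 in limma. In the exact permutation test Tbx3 alone did (p = 0.0433), at 1.53 (limma adjusted p = 0.955).

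Of 13 tested secretory progenitor and milk genes, 7 had a higher and 6 a lower mean with BDE-47, with a median of 0.10, and Wfdc18 alone had an unadjusted p under 0.05. Wfdc18 encodes a small secreted whey acidic protein family member made by mammary epithelium. Its mean log2 level was 6.16 ± 1.99 (SD, n = 8) with vehicle and 8.34 ± 1.74 (SD, n = 7) with BDE-47, a difference of 2.18 with a standard error of 0.65 (limma adjusted p = 0.982, exact permutation p = 0.0451, two-sided). Without the 3 libraries the means were 7.17 ± 0.76 (SD, n = 6) and 8.94 ± 0.77 (SD, n = 6). That difference, 1.78 with a standard error of 0.34, was the only one among 8319 genes that passed limma's test (adjusted p = 0.0439, exact permutation p = 0.00649). It passed in 1 setting only, which was chosen after the data were seen. In that setting the list as a whole leaned the other way, with 4 of 12 tested genes higher, 8 lower and a median of -0.22. Trf, which encodes transferrin, at -0.75, and Btn1a1, which encodes a butyrophilin of the milk fat globule, at -2.98, had an unadjusted p under 0.05 (adjusted p = 0.955 in limma for both).

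Basal genes were divided in direction: 5 of 11 tested had a higher and 6 a lower mean with BDE-47, with a median of -0.54. None had an unadjusted p under 0.05 in limma. Past 2-fold higher were Krt5 (1.42), Krt14 (1.32) and Oxtr (1.45), where 13.0% of all genes were. Past 2-fold lower were Trp63 (-1.31), Myh11 (-1.28) and Tagln (-1.13), where 13.2% of all genes were. In the 12 other mice 5 basal genes again had a higher and 6 a lower mean. Of them 1, Acta2, had an unadjusted p under 0.05 in limma, at -0.90. Their summed level was 210 to 1054 CPM with vehicle and 121 to 737 CPM with BDE-47. Keratinocyte genes, which would mark skin taken with the pad and which share the keratin family, summed to 35.9 to 82.4 CPM with vehicle and 45.1 to 137 CPM with BDE-47. All 9 of these tested had a higher mean with BDE-47, with a median of 0.26 and none at an unadjusted p under 0.05 in limma. In the exact permutation test Dmkn (p = 0.0281) and Lgals7 (p = 0.0298) alone were under 0.05. Without the 3 libraries all 9 again had a higher mean, with a median of 0.27. Lgals7 was then 1.88 higher (exact permutation p = 0.00216, limma adjusted p = 0.955) and Dmkn 0.89 higher (exact permutation p = 0.0736). The part of the keratinocyte genes in the luminal values was not tested. Adipocyte genes had a higher mean in 9 of 10 with all mice, at a median of 0.33, and a lower mean in 10 of 10 without the 3 libraries, at a median of -0.56. Of these 10, 4 then had an unadjusted p under 0.05, and none passed the adjustment (lowest adjusted p = 0.955). Fibroblast genes had a higher mean in 2 of 6, endothelial genes in 3 of 6 and macrophage genes in 1 of 5. Pecam1 and Cldn5 of the endothelial list had an unadjusted p under 0.05, lower with BDE-47 (adjusted p = 0.982). With the 3 libraries left out neither did (unadjusted p = 0.0718 and 0.240 in limma), and Tie1 alone of that list did, at -2.33 (adjusted p = 0.955). All 8 skeletal muscle genes were past 2-fold higher with all mice, and none was without the 3 libraries. No B or T cell gene reached 1 CPM in 7 mice.

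The genes most like the luminal genes were sought by Spearman's rho with the mean log2 level of the 10, over 15 mice and 9496 other genes. The first 5 were Esrp1 (0.914), Trps1 (0.896), Stc2 (0.879), Slc25a39 (0.875) and Cdh1 (0.846). Over the 12 mice without the 3 libraries the same genes had rho of 0.839, 0.804, 0.769, 0.783 and 0.699. Esrp1 encodes an epithelial splicing regulator and Trps1 a zinc finger protein of the GATA family. These correlations are a description, since the points share the epithelial content of each library.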

How the data were processed

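Left 4th mammary tissue of 15 mice (8 vehicle, 7 BDE-47; groups and numbers from the sample labels) was sequenced with QuantSeq 3′ FWD, 1 library per mouse. The authors mapped reads with STAR to the RefSeq mouse genome and normalized them to CPM. The submitters' processing notes name STAR 2.5.3a and GRCm38. The authors deposited log2(CPM) levels in which a gene below 1 CPM stands at 0, as the numbers themselves show. The analysis had been planned for either scale, and the log2 values were used as given. Of 52636 rows per mouse, 110 repeating a gene name were dropped, the first being kept. Depth, 10.1 to 19.6 M mapped reads, was recovered from the spacing of low values. At that depth the floor of 1 CPM stands for about 10 to 20 reads.

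Genes at or above 1 CPM in at least 7 mice were fitted in limma 3.58.1 (R 4.3.3), whose moderated variances followed a trend on mean level, with Benjamini-Hochberg adjustment over all genes tested and a threshold of 0.05. Standard errors and 95% intervals of differences came from this fit and not from the printed SDs. Single genes were also compared with two-sided exact permutation tests over mice. Shares of CPM carry 95% Wilson intervals. The study's covariate, whether a xenograft lay nearby, is not in the labels and was left out. The luminal genes and the other lists were chosen with earlier results of these data known. Beside the 10 luminal genes, the genes named were those of each list with an unadjusted p under 0.05, some of the 3 most abundant of each list, and the 5 most like the luminal mean. Alternatives were other pseudocounts, filters and size factors, a replicate block, and mice left out. The scripts were tested on simulated data. Promoter windows were taken from RefSeq on GRCm38.p6. Python 3.11.15 with pandas 2.3.3, numpy 2.4.6, scipy 1.17.1 and matplotlib 3.10.9 served the other steps.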

Additional observations from a re-analysis of the deposited data

Results flagged for a closer look

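In 24 series of values (10 genes and 2 summaries in each group), the gap of the lowest or highest mouse to its nearest neighbour, as a share of the range, was compared with Dixon's 95% critical value, which chance passes in about 1 of 20 groups. It was passed 9 times, by 2 mice, and each time by the lowest value of the group. BDE-47 6 stood apart in Krt8 (log2 level 0.99, group median 7.19), Krt18 (6.12, median 8.76), Krt19 (4.91, median 8.15), Krt7 (1.71, median 6.77), Epcam (3.97, median 7.88), Cldn3 (2.58, median 6.63), Cldn7 (0, median 4.21) and the mean of the 10 genes (2.87, median 6.78). These are values of 1 library and not 8 separate events. Vehicle 6 stood apart in Krt8 (1.13, group median 6.72). Vehicle 8 passed in none of the series. The gap is taken to the nearest mouse, and vehicle 6 and vehicle 8 were both low (summed 45.9 and 183 CPM). Each can therefore hide the other, and the lack of a flag does not place vehicle 8 with the other vehicle mice. BDE-47 6 is the library with 105791 CPM of skeletal muscle markers and vehicle 6 one of those with B cell markers. Their part in the low luminal values was not tested.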

How the results depend on the processing

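No luminal gene passed limma's adjusted threshold under any alternative, and in 221 of 227 values of single genes the direction was that of the main analysis (adjusted p from 0.807 to 1.00). The other 6 reversed without vehicle 6 and vehicle 8: Krt8 -0.19, Krt18 -0.13, Krt19 -0.12, Krt7 -0.14, Epcam -0.12 and Cldn3 -0.49, so that 4 of the 10 genes kept a higher mean with BDE-47. The low library BDE-47 6 then has no counterpart among the vehicle mice. Without the 3 libraries, 1 gene was called (Wfdc18) against 0, an alternative chosen after seeing the data. Genes past 2-fold numbered 2496, 4091 with log2(CPM + 0.1) and 257 among the 2577 genes at 1 CPM in all 15 mice, where 115 of the genes had an unadjusted p under 0.05, against 442 of 9506, and 7 of the luminal genes were left to test. Leaving out each mouse in turn gave 0 genes called, 339 to 478 at an unadjusted p under 0.05, 2330 to 2626 past 2-fold, 10 of 10 luminal genes higher and 0 called, and a log2 ratio of the median luminal shares from 0.27 to 0.43 (0.35 with all mice). Over the same omissions Krt8 ran from 0.07, without vehicle 6, to 1.68, without BDE-47 6.

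The replicate numbers were not used to pair the mice in the main fit. Deviations of same-numbered mice had correlations from -0.02 to 0.05, with 0 of 7 above 0.1. The median of these correlations was 0.024, against -0.003 for mice of different numbers. Of the 7 BDE-47 mice, 4 correlated best with the vehicle mouse of their own number. Whether the numbers mark pairs was not settled. The fit with the replicate block also left out vehicle 8, which has no partner of its number, so 2 choices changed together. In it 0 of 9196 genes were called, 374 had an unadjusted p under 0.05, 2354 were past 2-fold, and 10 of 10 luminal genes had a higher mean.

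With 8 and 7 mice, the SDs of the luminal genes within a group ran from 1.12 to 3.18 log2 units. The 95% limma intervals span over 2 units for each luminal gene with all mice. Both no difference and a 2-fold higher level lie inside each of them. They rest on moderated variances, which draw on all genes tested, and can be narrower than the SDs of a gene alone would give. Levels below 1 CPM, mostly of Elf5 and Cldn7, are not resolved. No count test was made, because the deposited values are normalized.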

Other observations

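Glycam1, a mucin of milk and of lymph node venules, was among the secretory and milk genes and stood at 696 CPM in vehicle 6 and 1069 CPM in vehicle 8. It was at most 2.51 CPM in the other 13 mice. In these 2 libraries the secretory and milk list summed to 1268 and 2250 CPM, inside the range of the other vehicle mice (1169 to 2637 CPM), while the luminal sums were 45.9 and 183 CPM. Mfge8, which encodes a milk fat globule protein that other cells of the pad also make, was the most abundant gene of that list on average, and its log2 difference, BDE-47 minus vehicle, was -0.52 with a standard error of 0.38 (limma adjusted p = 0.982). Glycam1 was chosen after its values were seen.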
